A study of Sus scrofa with 32 samples.

Results

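Retinoids, the vitamin A compounds, are carried, stored, oxidised and degraded by a small set of proteins, and 10 genes for these steps were described here out of 30185 genes counted in porcine endometrium. They were chosen by name: RBP4, STRA6, CYP26A1, ALDH1A1, ALDH1A2, ALDH1A3, CRABP2, RLBP1, LRAT and RDH10. RNA was sequenced from 4 compartments of the endometrium cut out by laser capture microdissection, namely the luminal epithelium (LE) that faces the conceptus, the epithelium of the glands (GE), the vessels (BV) and the stroma (S). The tissue came from 4 nonpregnant, cyclic gilts (C128, C40, C42 and C78) and from 4 pregnant gilts (P139, P39, P41 and P43) on Day 14, when the conceptus begins to attach. The labels count this day from ovulation in cyclic gilts and as gestation in pregnant ones, and the study's methods count it from insemination in both. All were prepuberal gilts synchronised with eCG and hCG, the pregnant ones inseminated with semen and the cyclic ones with semen supernatant of the same boar. Per the paper's methods, pregnant tissue was cut from hyperemic zones, where embryos attach, with the conceptus taken off first. The effects of this site and of pregnancy cannot be told apart here. A gilt is named by the status letter and animal number in the labels of its libraries. Each gilt gave 1 library per compartment. Counts for the GE library of P41 were missing from the values used here. So 31 libraries were used, with n = 4 per group and n = 3 for pregnant GE. A captured compartment holds the cells of the cut area and not 1 purified cell type.

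Retinol travels in blood and in uterine secretions bound to the carrier RBP4, enters many cells through the receptor STRA6, and is esterified for storage by LRAT. RDH10 oxidises retinol to retinaldehyde, the ALDH1A enzymes oxidise retinaldehyde to retinoic acid, CRABP2 hands retinoic acid to its nuclear receptors, and CYP26A1 breaks it down. RLBP1 binds retinaldehyde and is best known from the retina. In the pig, RBP4 is an established product of the uterine epithelium and of the elongating conceptus, and retinoic acid is known to switch on CYP26A1 in many tissues.

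A stretch of the pig CYP26A1 promoter is shown because CYP26A1 had the log2 fold change of largest size of the 8 retinoid genes tested in LE, and because it held the repeat described next. Receptors for retinoic acid bind pairs of 6-letter half-sites. The 250 bases before the start of the first curated transcript, or of the gene where RefSeq had none, were searched on both strands for a direct repeat of AGGTCA, of its variant GGGTCA, of the variant AGTTCA or of the variant GGTTCA, in any mix, with 5 bases between the pair and hits free to overlap. CYP26A1 held 1 such repeat, from base -64 to base -48 before the start, and none of the other 9 genes held one. CYP26A1, RBP4, LRAT and CRABP2 had a curated start, and the other 6 were read from the gene start. Among 19545 promoters searched in the same way, 8 (0.0409%) held the repeat, namely 2 of 3958 with a curated start (0.0505%) and 6 of 15587 with a gene start (0.0385%). A repeat with a spacing of 2 bases was in 0.0409% of all promoters and in none of the 10 genes. The sequence below is from the RefSeq assembly Sscrofa11.1, plus strand, chr14:104563524-104563552, with the pair of half-sites in capitals as they read on that strand, and it also lies in the first exon of a longer predicted transcript.
CYP26A1 promoter: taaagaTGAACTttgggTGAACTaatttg
A match of letters describes the sequence alone.

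Library totals ranged from 2415216 to 7081556 counts with a median of 3624021. The authors' filtered tables held 12002 (LE), 11905 (GE), 11096 (BV) and 11935 (S) genes. Of the 40 combinations of a retinoid gene and a compartment, 28 were in these tables. CRABP2 was in none of them, CYP26A1 was in the LE table only, RLBP1 in the GE table only, and LRAT in the LE and GE tables. A gene such as CYP26A1 or RLBP1 could enter a table through the group in which it was high. Levels are given as CPM, counts relative to the library total, scaled within a compartment by TMM factors, and p-values are from edgeR's quasi-likelihood test with Benjamini-Hochberg adjustment over all genes of the compartment. The call rule followed the form of the study's. A gene was called in LE at a false discovery rate of 1%, and in the other compartments at an unadjusted p up to the largest one called in LE, here 0.000328.

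Several retinoid genes had cyclic and pregnant libraries far apart, and none passed that rule. Of the 28 tests, 0 were called by the quasi-likelihood test and 7 had an unadjusted p under 0.05. Over all genes LE had a called share of 3.32% (2.02% higher and 1.29% lower in pregnant gilts), GE 0.748% (0.512% and 0.235%), BV 1.86% (1.3% and 0.559%) and S 0.293% (0.184% and 0.109%). The shares of all genes with an unadjusted p under 0.05 were 26.9% (LE), 23.0% (GE), 28.5% (BV) and 14.5% (S). The robust edgeR model that the study names gave a less strict limit for p outside LE, 0.00114. With it 7 tests of 5 genes were called, against called shares over all genes of 11.8% (LE), 6.66% (GE), 11.0% (BV) and 3.16% (S). DESeq2 called 5 tests of 5 genes, against 11.2%, 6.66%, 8.52% and 2.6%. With a false discovery rate of 5% as the limit in every compartment, the quasi-likelihood test called ALDH1A3 in GE and RBP4 in BV, beside 10.7% (LE), 1.86% (GE), 8.63% (BV) and 0.0335% (S) of all genes. Without the filter it called the same pair, beside 2.17%, 0.621%, 1.3% and 0.23%. The tests called by the other tools are named with each gene. Those of the robust model include CYP26A1 in LE and RLBP1 in GE, which the paper lists among its most changed genes. Tested retinoid genes had a median log2 fold change of -0.165 (LE), 0.457 (GE), 0.344 (BV) and -0.096 (S), and the median of all genes was within 0.01 of 0 in each compartment.

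**Figure D1:**
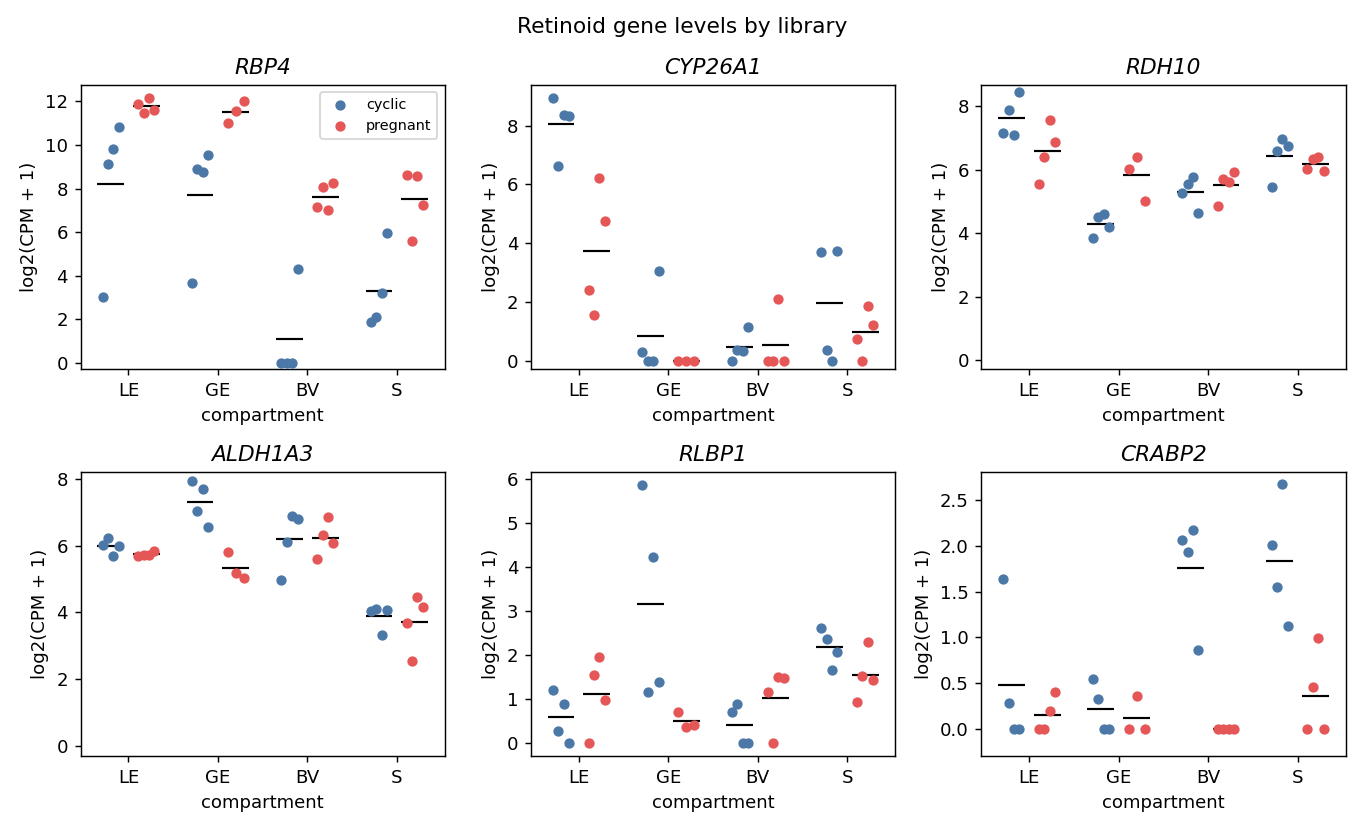
Level of 6 retinoid genes in every library, as log2(CPM + 1) on the vertical axis, by compartment on the horizontal axis. Blue points are cyclic gilts, red points are pregnant gilts, and black lines are means of the log values. RBP4 in LE, GE and BV, and RDH10 in GE, were higher in every pregnant library than in any cyclic one, and CYP26A1 in LE and ALDH1A3 and RLBP1 in GE were lower.

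RBP4, the plasma and uterine carrier of retinol (gene ID 397124, Sscrofa11.1 chr14:105037360-105044552, minus strand), had the highest level of the 10 genes in LE of both groups and in pregnant GE, and the second highest in cyclic GE after ALDH1A1. In LE it stood at 7.13, 556, 905 and 1821 CPM in the cyclic gilts and at 2849, 3112, 3821 and 4539.5 CPM in the pregnant gilts. The groups did not overlap, with a mean of 822 ± 761 (SD, n = 4) against 3581 ± 760 (SD, n = 4), but the cyclic libraries lay far apart. The log2 fold change was 2.12 (SE 1.02, adjusted p = 0.219). In GE the cyclic gilts had 11.7, 437, 472 and 742 CPM and the pregnant gilts 2032, 3041 and 4154 CPM. These groups did not overlap either, and the log2 fold change was 2.89 (SE 0.98, adjusted p = 0.137), called by the robust edgeR model (2.84, adjusted p = 0.00235) but missed by DESeq2 (2.90, adjusted p = 0.0626).

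Cyclic gilt C128 stood apart from the other cyclic gilts. It had the lowest RBP4 of all gilts in LE and in GE. ACP5, which encodes uteroferrin, a secretory product of the glands, was also low in the GE of this gilt, at 15.1 CPM against 1687 to 2622 in the other 3 cyclic gilts. FOXA2, a transcription factor of the glands, was at 98.8 CPM there and at 70.8 to 86.6 CPM in the others. Without gilt C128, the RBP4 log2 fold change was 1.71 in LE (adjusted p = 0.0295) and 2.48 in GE (adjusted p = 0.0222), and the GE difference was then called. Over all quasi-likelihood fits with 1 library left out, its adjusted p ranged from 0.0295 to 0.369 in LE and from 0.0222 to 0.257 in GE. Of the 8 retinoid genes tested in LE, 1 was above every cyclic library in every pregnant one and 1 was below, beside 10.3% and 9.32% of all genes. In GE 2 of 8 were above and 2 were below, beside 11.0% and 11.9% of all genes.

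RBP4 was also counted outside the epithelium. In BV it had 0 counts in cyclic gilts C128, C40 and C42 and 19.2 CPM in cyclic gilt C78, and the pregnant gilts had 127, 143, 270 and 305 CPM. The groups did not overlap, which in BV held for 1 of 6 retinoid genes above (8.99% of all genes) and 0 below (9.22%). The log2 fold change was 5.68 (SE 1.09, adjusted p = 0.0186, unadjusted p = 0.000457), just short of the limit for a call. In S the cyclic gilts had 2.66, 3.30, 8.28 and 61.8 CPM and the pregnant gilts 47.6, 153, 381 and 397 CPM. The groups overlapped in S, since cyclic gilt C78 was above pregnant gilt P39, and none of the 6 retinoid genes in the S table was apart there (3.85% of all genes above and 4.92% below). The log2 fold change in S was 3.64 (SE 1.04, adjusted p = 0.176). The robust edgeR model called RBP4 in BV and S, and DESeq2 called it in S.

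Without cyclic gilt C78, RBP4 was called in both compartments by the quasi-likelihood test. The fitted values were then 12.32 in BV, where every remaining cyclic library is at 0 so that the value depends on the prior count and is no bound, and 5.77 in S. By the same test with each library left out in turn, the adjusted p ranged from 0.0120 to 0.0602 in BV and from 0.0715 to 0.366 in S. In bulk samples such as these, more cells of a type and more RNA per cell cannot be told apart.

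Epithelial markers were higher in pregnant than in cyclic BV, as RBP4 was, and in S their sum overlapped between the groups. The summed level of 5 epithelial markers (EPCAM, KRT8, KRT18, KRT7 and CDH1) was 2.43 to 26.6 CPM in cyclic BV and 105 to 216 CPM in pregnant BV. All 5 markers had a higher mean in pregnant BV, 4 of them without overlap, and none was at 0 in either group. In S the sum was 7.92 to 124 CPM in cyclic and 21.5 to 332 CPM in pregnant gilts, with 4 of 5 means higher and no marker without overlap. As a share of the LE library of the same gilt, RBP4 in BV was 0 to 1.16% in cyclic gilts and 2.91 to 10.4% in pregnant gilts (median 7.07%). The epithelial markers in BV were 0.0985 to 1.17% of LE in cyclic gilts and 5.28 to 12.9% in pregnant gilts (median 7.05%). Their sum in LE was itself lower in pregnant gilts, at 1699 to 2083 CPM against 2396 to 2733 CPM, which raises the pregnant percentages of these markers. Among the pregnant gilts, P139 had the highest marker share in BV (12.9%) with RBP4 at 4.08%. P43 had the highest RBP4 share (10.4%) with markers at 5.73%, and P41 was lowest in both. In S of pregnant gilts, RBP4 was 1.73 to 11.2% of LE (median 6.71%) and the markers were 1.31 to 15.9% (median 8.13%). In S of cyclic gilts, RBP4 was 0.602 to 37.5% of LE (median 2.29%) and the markers were 0.309 to 4.88% (median 2.62%). The 2 gland markers, ACP5 and FOXA2, had summed medians in BV of 4.79 CPM in cyclic and 380 CPM in pregnant gilts. In GE these medians were 2018 and 6528 CPM, and in LE only 193 and 337 CPM. Percentages of LE are large for gland markers because LE holds little of them. On that base their sum in BV was 0.883 to 21.5% (median 4.64%) in cyclic and 9.33 to 221% (median 122%) in pregnant gilts, and in S the medians were 4.65% and 27.1%. The smooth muscle markers were lower in pregnant BV, with 5 of 5 means lower and summed medians of 1394 against 6032 CPM. The part of these cell types in the RBP4 difference of BV and S was not tested.

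**Figure D2:**
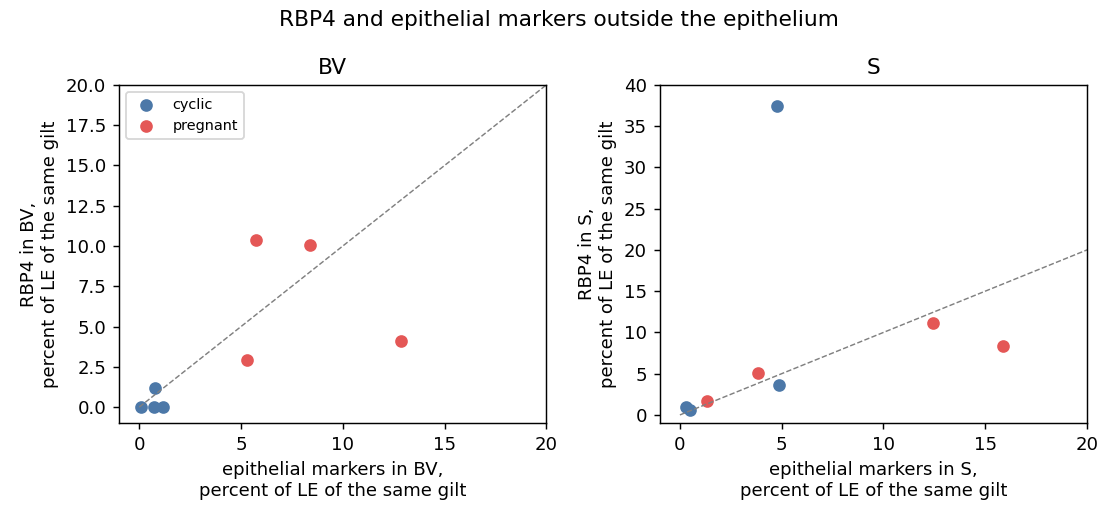
RBP4 in BV (left) and S (right) on the vertical axis against the summed level of 5 epithelial markers on the horizontal axis, each as a percent of the LE library of the same gilt. Each point is 1 gilt, and the dashed line marks equal percentages. Pregnant gilts had more of both in BV, and the high point in S is cyclic gilt C128 (37.5%), whose LE had only 7.23 CPM of RBP4 on the scale shared by the compartments.

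RBP4 shares its place in the genome with PDE6C, which lies on the opposite strand and overlaps it. Whether reads were counted by strand is not given in the sources used here, so reads of the overlap could belong to either gene. The same holds for ALDH1A3 and LOC106509041. RBP4 and CYP26A1 both lie on chromosome 14, 470260 bases apart.

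CYP26A1, the retinoic acid hydroxylase whose promoter is shown above (gene ID 100124374, Sscrofa11.1 chr14:104561394-104567099, plus strand), went the other way in LE. The cyclic gilts had 97.8, 323, 326 and 491 CPM and the pregnant gilts 1.93, 4.32, 26.0 and 73.6 CPM. Every pregnant library was below every cyclic one, with means of 309 ± 161 (SD, n = 4) and 26.5 ± 33.2 (SD, n = 4). The log2 fold change was -3.51 (SE 0.98, unadjusted p = 0.00555, adjusted p = 0.0509), short of a call by the quasi-likelihood test and called by DESeq2 (-3.55, adjusted p = 0.00796) and by the robust edgeR model (-4.34, adjusted p = 4.37e-07). Without pregnant gilt P41, which had the highest pregnant value, it was -4.85 (adjusted p = 0.0182). Over all quasi-likelihood fits with 1 library left out, it ranged from -4.85 to -3.15 and the adjusted p from 0.0182 to 0.124. The summed epithelial markers were also lower in pregnant LE (1699 to 2083 CPM against 2396 to 2733 CPM), and their part in the LE differences was not tested.

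Outside LE, CYP26A1 was at or near 0. Its GE libraries held 1, 0, 0 and 31 counts in cyclic gilts C128, C40, C42 and C78 and 0 in the 3 pregnant ones. The pooled pregnant level was 7.06-fold lower when set to a floor of 3 counts over the group. That value rests on 1 cyclic library and allows for counting error in the pregnant group only. An exact two-sided permutation test gave p = 0.571. In S the cyclic gilts had 12.0, 0.275, 0 and 12.4 CPM and the pregnant gilts 0.684, 0, 2.62 and 1.35 CPM (exact permutation test, p = 0.4). In BV no group exceeded 9 counts in all.

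The genes that make retinoic acid act upstream of CYP26A1. ALDH1A3, a retinaldehyde dehydrogenase (gene ID 102162530, Sscrofa11.1 chr1:139451080-139491514, plus strand), had 93.9, 131, 206 and 245 CPM in GE of cyclic gilts and 31.4, 35.3 and 54.9 CPM in GE of pregnant gilts. The groups did not overlap, and the log2 fold change was -2.06 (SE 0.38, unadjusted p = 0.000599, adjusted p = 0.0451). DESeq2 and the robust edgeR model called this difference (adjusted p = 1.64e-05 and 6.1e-07), and so did the quasi-likelihood test without cyclic gilt C78. With each library left out in turn, that test gave log2 fold changes of -2.33 to -1.82 and adjusted p-values of 0.0427 to 0.144. In the other compartments ALDH1A3 was nearly level between the groups. Its LE mean was 62.7 ± 9.53 CPM (SD, n = 4) in cyclic gilts and 52.6 ± 2.52 CPM (SD, n = 4) in pregnant ones, with log2 fold changes of -0.25 in LE, -0.07 in BV and -0.06 in S.

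RDH10, the enzyme that oxidises retinol to retinaldehyde (gene ID 100127136, Sscrofa11.1 chr4:62569877-62600981, minus strand), had log2 fold changes of opposite sign in the 2 epithelia. In GE it was at 13.3, 17.2, 21.7 and 23.3 CPM in cyclic gilts and at 31.4, 64.6 and 83.7 CPM in pregnant gilts, with no overlap. The log2 fold change in GE was 1.67 (SE 0.34, unadjusted p = 0.00115, adjusted p = 0.0539), called by DESeq2 and by the robust edgeR model. In LE the cyclic gilts had 136, 141, 234 and 347 CPM and the pregnant gilts 45.9, 83.1, 117 and 187 CPM. These groups overlapped through pregnant gilt P41, and the log2 fold change was -0.98 (SE 0.44, adjusted p = 0.193). In GE, the summed gland and leukocyte markers were higher in pregnant gilts. RBP4 and RDH10 went the same way there, and ALDH1A3 and RLBP1 the opposite way. The gland markers summed to 114 to 2702 CPM in cyclic and 4856 to 7324 CPM in pregnant GE, and the leukocyte markers to 41.3 to 44.5 CPM and 103 to 219 CPM. Neither sum overlapped between the groups, and their part was not tested. Of the 2 gland markers, 1 was without overlap by itself. In cyclic GE other than that of C128 the gland sum was mostly ACP5, a secretory product, so it is no measure of gland cells alone.

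The difference between the RDH10 effects was tested itself, in 1 fit of the 31 libraries with the gilt as a block. The pregnancy effect in LE minus that in GE was -2.93 on the log2 scale (SE 0.54, adjusted p = 0.00387), which passed at a false discovery rate of 1%. It was the 1 of 9 retinoid genes called for LE against GE, beside 1.02% of all genes. The test over all 4 compartments called 0 of 9 retinoid genes (1.94% of all genes), with RDH10 at an adjusted p = 0.0108, the only one with an adjusted p under 0.05. Leaving out pregnant gilt P41 or P43 kept the LE against GE call. Leaving out any 1 of pregnant gilts P139 and P39 or of the 4 cyclic gilts lost it, at adjusted p-values of 0.0104 to 0.053. At a false discovery rate of 5%, RDH10 was called over all compartments (6.23% of all genes), RDH10 and RLBP1 for LE against GE (3.67%), and RBP4 and LRAT for LE against BV (7.41%), LRAT with 0 counts in cyclic BV. No other pair gave a call at 5%, beside 2.59% for LE against S, 1.02% for GE against BV, 0.31% for GE against S and 0.0% for BV against S. At 1% the other 5 pairs gave no call for a retinoid gene, beside 2.3% of all genes for LE against BV, 0.85% for LE against S, 0.0792% for GE against BV, 0.0576% for GE against S and 0.0% for BV against S.

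RLBP1, the retinaldehyde carrier (gene ID 100521278, Sscrofa11.1 chr7:54783965-54800008, minus strand), was detected in GE of some cyclic gilts. It had 57.5, 17.7, 1.63 and 1.25 CPM in cyclic gilts C128, C42, C78 and C40, and 0.635, 0.280 and 0.324 CPM in pregnant gilts P139, P39 and P43, which rest on 3, 1 and 1 counts. The groups did not overlap, but most of the cyclic level came from 2 gilts. The log2 fold change was -5.40 (SE 1.66, unadjusted p = 0.0115, adjusted p = 0.111), called by DESeq2 and by the robust edgeR model. Without cyclic gilt C128 it was -3.90 (adjusted p = 0.129), and without any other library between -5.87 and -5.20.

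In the filtered tables STRA6, ALDH1A1, ALDH1A2 and LRAT had no test with an unadjusted p under 0.05. Without the filter, ALDH1A2 in GE reached an unadjusted p of 0.0477 (adjusted p = 0.314) and LRAT in BV 0.00475 (adjusted p = 0.0787). STRA6, the cell surface receptor for RBP4, spanned 12.0 to 44.3 CPM in LE of cyclic gilts and 24.6 to 43.9 CPM in LE of pregnant gilts (log2 fold change 0.05, SE 0.37). In GE its log2 fold change was 0.78 (SE 0.40, adjusted p = 0.286) and in BV 0.80 (SE 0.59, adjusted p = 0.407). ALDH1A1 and ALDH1A2, the other retinaldehyde dehydrogenases, had log2 fold changes between -0.24 and 0.80 over the 4 compartments, the lowest for ALDH1A2 in S (SE 0.31) and the highest for ALDH1A2 in GE (SE 0.37). LRAT, the enzyme of retinol storage, had -0.36 in LE (SE 0.58) and 0.13 in GE (SE 0.52). With these errors a 2-fold change in either direction was not distinguished from none for several of them, such as ALDH1A1 in S (-0.13, SE 0.78).

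**Figure D3:**
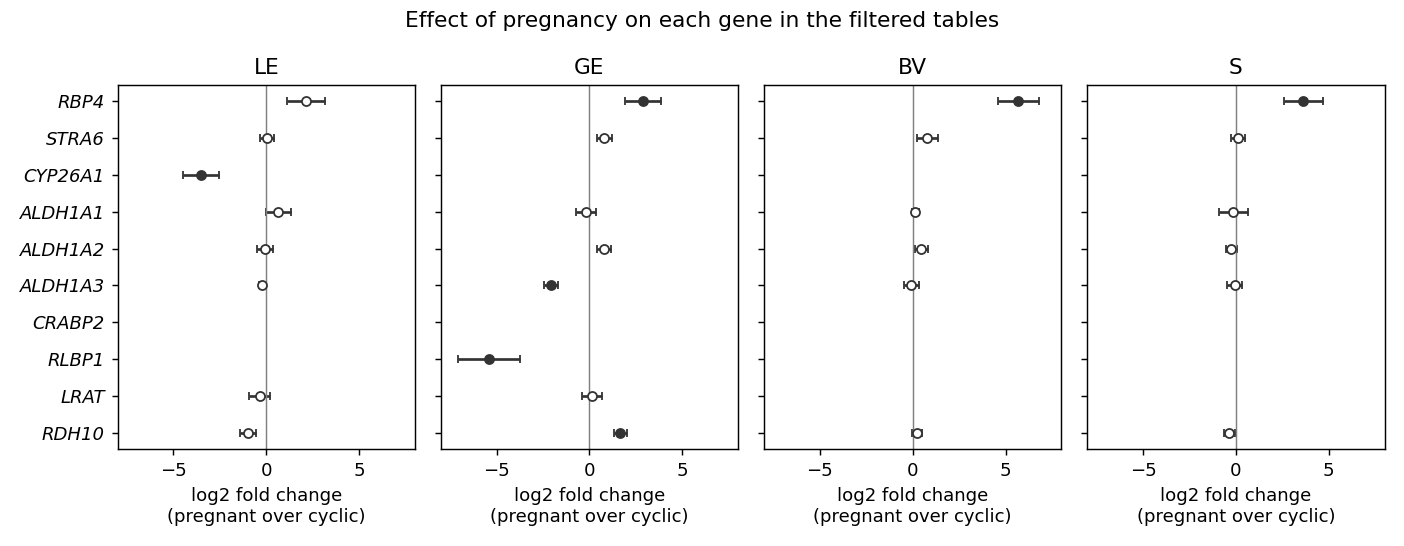
Log2 fold change of pregnant over cyclic gilts on the horizontal axis for each retinoid gene of a compartment's filtered table, 1 panel per compartment. Bars are 1 standard error, and filled points have an unadjusted p under 0.05. The 7 filled points are CYP26A1 in LE, RBP4, ALDH1A3, RLBP1 and RDH10 in GE, and RBP4 in BV and S, and none passed the call rule.

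CRABP2 and LRAT showed group differences at very low counts in the vessels. CRABP2, the cytosolic carrier of retinoic acid (gene ID 100155151, Sscrofa11.1 chr4:93388198-93393861, plus strand), had 10, 10, 13 and 2 counts in BV of cyclic gilts C128, C40, C42 and C78 and 0 in all 4 pregnant gilts. Its pooled BV level was 9.79-fold lower in pregnant gilts when these were set to the floor of 3 counts over the group. The counts of the other group are taken as exact in such a value. In S it had 16, 7, 15 and 7 counts in cyclic gilts and 0, 1, 3 and 0 in pregnant gilts, a pooled ratio of 8.35 (95% exact counting interval 3.04 to 32.0). LRAT in BV had 0 counts in every cyclic gilt and 4, 4, 1 and 2 in pregnant gilts P139, P39, P41 and P43. That was 4.37-fold higher with the cyclic group set to the same floor.

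In each of these 3 cases the groups did not overlap, and the exact two-sided permutation test reached 0.0286, the smallest p that 4 against 4 libraries allow. Adjusted over the 12 combinations outside the filtered tables, it was 0.114 in each case. With at least 10 counts asked, 4 retinoid genes lay outside the table in BV, 1 of them apart above and 1 below, beside 5.86% and 2.34% of all such genes. In S these were 4 genes, 0 above and 1 below, beside 2.45% and 1.73%. LRAT was higher in LE and GE than in S, as given below. Its BV counts came from all 4 pregnant libraries, and epithelial markers were higher in pregnant BV as well. As a share of LE, LRAT in pregnant BV was 0.868 to 41.1% (median 4.77%), which rests on few counts. The epithelial markers were at 5.28 to 12.9% there, and the part of epithelial RNA was not tested. By the direction of means alone, CRABP2 went the other way from most epithelial markers and the same way as most smooth muscle and fibroblast markers. Of 5 smooth muscle markers, 0 had a higher mean in pregnant BV and 1 in pregnant S. Of the 6 fibroblast markers listed below, 1 had a higher mean in pregnant BV and 1 in pregnant S. None of the 6 was without overlap in BV or S, whereas 1 smooth muscle marker was lower without overlap in BV and 2 in S. The fibroblast sums overlapped widely, at 24059 to 86701 CPM in cyclic and 29188 to 71955 CPM in pregnant BV. In S they were 35845 to 105005 CPM and 39784 to 92327 CPM. The 5 smooth muscle markers summed to 4729 to 15447 CPM in cyclic BV and 688 to 5847 CPM in pregnant BV, and to 318 to 852 CPM and 182 to 282 CPM in S. The part of smooth muscle or fibroblast RNA in the CRABP2 difference was not tested. The other combinations outside the tables had exact permutation p-values from 0.143 to 1.

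The compartments differed in which retinoid genes they carried. Levels were compared on a CPM scale shared by all 31 libraries, averaged over cyclic and pregnant gilts with the gilt as a block. Of the 9 retinoid genes in at least 1 filtered table, 8 differed between at least 1 pair of compartments at a false discovery rate of 1%, as did 80.9% of all genes. For LE against GE, 5 of 9 were called (41.4% of all genes), for LE against BV 5 (49.2%), and for LE against S 7 (50.6%). For GE against BV 4 were called (58.3%), for GE against S 7 (59.3%), and for BV against S 4 (7.19%).

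RBP4 and LRAT, the carrier and the storage enzyme, were epithelial. RBP4 was 4.62 log2 units higher in LE than in S (SE 0.61, adjusted p = 1.5e-06) and 4.18 higher in GE than in S (SE 0.62), whereas LE and GE did not differ beyond their spread (0.44, SE 0.52, adjusted p = 0.497). LRAT was 3.56 log2 units higher in LE than in S (SE 0.36) and 2.61 higher in GE than in S (SE 0.37), with LE against GE at 0.96 (SE 0.32, adjusted p = 0.0174). CYP26A1 was called in LE over each other compartment, with 1.91 to 497 CPM over the 8 LE libraries and at most 12.7 CPM in any other library. RDH10 was higher in LE than in GE by 2.14 (SE 0.28), than in BV by 1.66 (SE 0.25) and than in S by 0.83 (SE 0.25), all on the log2 scale.

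The 3 retinaldehyde dehydrogenases were divided among the compartments. ALDH1A1 was highest in GE, 2.66 log2 units above LE (SE 0.54) and 2.14 above S (SE 0.53), and did not differ between GE and BV (0.99, SE 0.51, adjusted p = 0.0891). ALDH1A2 was highest in S, above BV by 1.38 (SE 0.29), LE by 1.67 (SE 0.29) and GE by 3.83 (SE 0.34) log2 units. STRA6 had the same order of S over LE and GE, above BV by 2.15 (SE 0.31), LE by 1.65 (SE 0.30) and GE by 3.77 (SE 0.36). ALDH1A3 was lowest in S, below LE by 2.03 (SE 0.29), GE by 2.53 (SE 0.30) and BV by 2.55 (SE 0.29), and the other 3 compartments were not called against each other. No pair was called for RLBP1, and CRABP2 was not tested.

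Stromal RNA was present in the epithelial libraries. The summed level of 6 fibroblast markers (COL1A1, COL1A2, COL3A1, DCN, LUM and PDGFRA) in LE was 11.2 to 19.2% of that in S of the same gilt in cyclic and 16.0 to 25.1% in pregnant gilts. ALDH1A2 in LE was 7.89 to 71.0% of S (median 32.6%) in cyclic and 27.8 to 46.6% (median 33.7%) in pregnant gilts. STRA6 in LE was 9.73 to 52.6% (median 37.0%) and 23.1 to 72.0% (median 28.2%). In GE the markers were at 4.86 to 10.1% of S in all 7 gilts, and the medians of ALDH1A2 and STRA6 lay between 4.42 and 8.34%. The part of stromal RNA in the LE and GE levels of these genes was not tested. Fibroblast markers were also high in BV, with summed medians of 60985 CPM (cyclic) and 43068 CPM (pregnant) against 78684 and 72096 CPM in S. The part of stromal RNA in the BV levels was not tested either. The group medians of smooth muscle and endothelial markers were highest in BV and those of FOXA2 in GE. None of the 5 epithelial markers was at 0 in any compartment.

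Per kilobase of exon, the genes can be set side by side. In LE, RBP4 had a mean of 388 ± 290 CPM per kb (SD, n = 8) and made up 69.2% of the summed level of the 10 genes, with CYP26A1 at 42.2 ± 46.9, RDH10 at 39.4 ± 22.5 and ALDH1A1 at 38.5 ± 33.2 CPM per kb. In GE, RBP4 (259 ± 261) and ALDH1A1 (206 ± 110 CPM per kb, n = 7) made up 50.1% and 39.9%. These shares differed between the groups of gilts. RBP4 had 144 CPM per kb in cyclic LE and 633 CPM per kb (83.0% of the sum) in pregnant LE, and CYP26A1 made up 21.6% of the sum in cyclic and 0.875% in pregnant LE. In cyclic GE ALDH1A1 led with 62.1% against 19.6% for RBP4, and in pregnant GE RBP4 led with 69.2% against 26.0%. In BV, ALDH1A1 led with 106 ± 16.8 CPM per kb and 54.3%, followed over both groups by ALDH1A2 at 27.4 ± 10.9. In cyclic BV, ALDH1A3 (23.5 CPM per kb) and ALDH1A2 (23.1) were close behind each other. In pregnant BV, RBP4 was second at 39.7 CPM per kb (17.7% of the sum), before ALDH1A2 at 31.7. In S, ALDH1A2 had 69.1 ± 22.6 and ALDH1A1 52.7 ± 34.5 CPM per kb, 35.6% and 27.1% of the sum. The SDs span cyclic and pregnant gilts, and neighbours in these orders within 1 SD of each other, such as CYP26A1, RDH10 and ALDH1A1 in LE, were not separated.

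**Figure D4:**
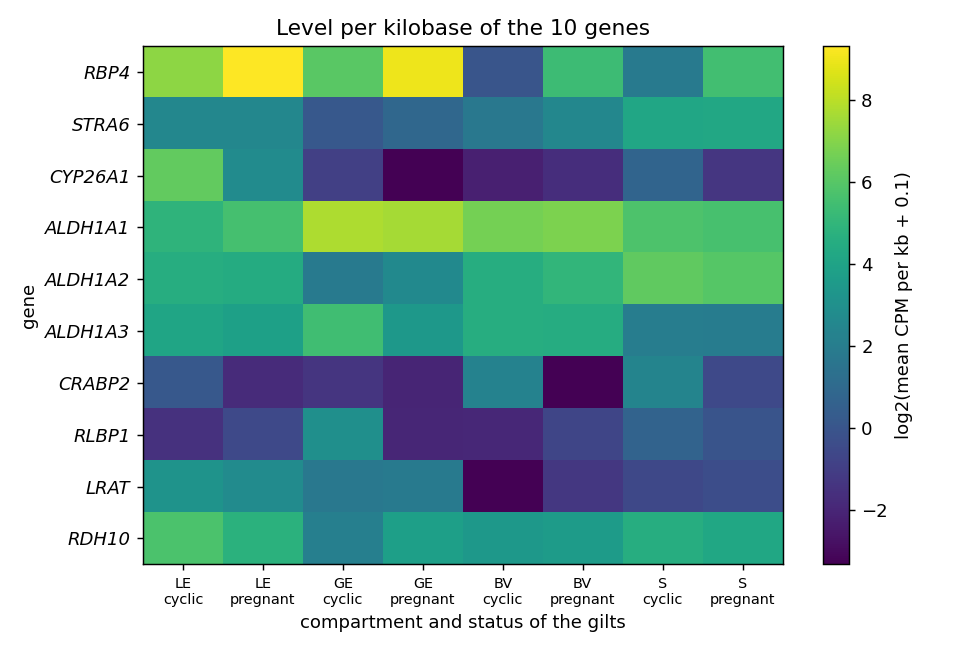
Mean level of each of the 10 genes (rows) in the 8 groups of libraries (columns), coloured by log2(mean CPM per kb of exon + 0.1) on the scale shared by the compartments. RBP4 was brightest in pregnant LE and GE, ALDH1A1 led in cyclic GE and in BV, and CYP26A1 was bright in cyclic LE only.

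Of 45 further genes of the retinoid pathway, 42 were found by symbol and 23, 22, 18 and 26 were in the respective filtered tables. In LE 1 of 23 was called higher and 0 lower, in BV 1 of 18 higher and 0 lower, and in GE and S 0 of 22 and 0 of 26, by the quasi-likelihood test. The shares of all genes called higher in pregnant gilts were 2.02% in LE and 1.3% in BV. An unadjusted p under 0.05 was reached by 4, 5, 7 and 3 of them in LE, GE, BV and S. The robust edgeR model called 1, 4, 1 and 1, and DESeq2 called 2, 4, 1 and 1.

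DHRS3, which reduces retinaldehyde back to retinol and opposes RDH10, rose in LE. It had 11.2, 13.0, 22.7 and 32.6 CPM in cyclic and 58.9, 91.4, 117 and 129 CPM in pregnant gilts. The groups did not overlap, with a log2 fold change of 2.31 (SE 0.38, adjusted p = 0.00682). The summed level of 6 leukocyte markers was also higher in pregnant LE (247 to 350 CPM against 86 to 193 CPM), and so were all 5 endothelial markers by their means (summed medians 706 and 410 CPM). DHRS3 was at 95.4 to 173 CPM in BV on the scale shared by the compartments, above its cyclic LE level of at most 30.9 CPM, and the part of other cell types in its LE difference was not tested. Leaving out cyclic gilt C78 or pregnant gilt P41 kept the call in LE, and leaving out any other 1 of the 8 libraries lost it (adjusted p up to 0.0249). In GE it was at 35.0 to 67.8 CPM in cyclic and 102 to 132 CPM in pregnant gilts (log2 fold change 1.35, SE 0.24, adjusted p = 0.0451). In S it was at 16.2 to 33.3 CPM and 53.1 to 69.1 CPM (1.18, SE 0.22, adjusted p = 0.109). Both of these, not called by the quasi-likelihood test, were called by DESeq2 and the robust edgeR model. In BV the log2 fold change was -0.12 (SE 0.23).

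LRP2, which encodes megalin, an endocytic receptor that takes up retinol bound to RBP4, rose in BV. It had 6.48, 6.51, 7.34 and 8.64 CPM in cyclic and 18.3, 29.9, 33.3 and 37.6 CPM in pregnant gilts, with no overlap (log2 fold change 2.04, SE 0.25, adjusted p = 0.0130). The call was kept without any 1 of the 8 libraries. LRP2 was far higher in LE, at 118 to 2504 CPM over the 8 libraries, and its BV level was 0.358 to 1.56% of LE in cyclic and 5.78 to 28.8% in pregnant gilts. The epithelial markers were also higher in pregnant BV, at 0.0985 to 1.17% of LE in cyclic and 5.28 to 12.9% in pregnant gilts, and their part was not tested. In LE itself LRP2 had a log2 fold change of -1.71 (SE 0.70, adjusted p = 0.152), and of -0.83 without cyclic gilt C128, which had the 2504 CPM.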

How the data were processed

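Libraries were made from captured RNA with a low-input kit that marks molecules. Per the paper's methods, the authors trimmed reads, aligned them with Hisat2 to Sscrofa11.1, removed PCR duplicates and used QuasR to count reads over NCBI genes. The deposited values are raw counts, 1 full and 1 filtered table per compartment, filtered by the authors at a CPM cut-off whose value is not given in the sources used here. edgeR 4.0.16 (R 4.3.3, limma 3.58.1) with TMM factors and quasi-likelihood tests was run on each filtered table, cyclic against pregnant without a block since the gilts differ. 1 joint fit used 13887 genes of 31 libraries with the gilt as a block. This pairing comes from the labels, since libraries of 1 number share an animal, and the deviations of same-gilt libraries correlated with a median of 0.165 (-0.140 to 0.372, 45 pairs), against -0.0513 between different gilts. Replicates are separate gilts, per the labels. Alternatives were DESeq2 1.42.0, the robust edgeR model, RLE factors, other filters, a false discovery rate of 5%, removal of ribosomal RNA genes and leaving out each library. Genes outside the filtered tables were tested by exact permutation (scipy 1.17.1). Intervals allow for counting error alone, and floors for that of the group at 0 only. The scripts were tested on simulated data, in which the joint fit missed most moderate differences between compartments, so a missing call there says little. The members and gene lists were chosen with earlier results of these data known. All 10 members are named, and of the other pathway genes those called in at least 1 compartment have values. Genes alike in pattern were to be named for members called, and none was called. Promoters were read from the RefSeq genome of the same build.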

Additional observations from a re-analysis of the deposited data

Results flagged for a closer look

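Of 68 groups of 4 libraries, 9 held 1 library far from the other 3. Chance marks about 1 in 20 such groups if values are normally distributed, which CPM near 0 are not. A library above 0 beside 3 at 0 is always marked. In 3 of the 9 groups the marked library had under 20 counts. Cyclic gilt C78 was apart for RBP4 in BV (19.2 CPM, the other 3 at 0), RBP4 in S (61.8 CPM, next 8.28), CYP26A1 in GE (7.22 CPM, next 0.229) and LRAT in S (5.03 CPM, next 1.08). Pregnant gilt P41 was apart for CYP26A1 in BV (3.30 CPM, the others at 0) and LRAT in S (5.25 CPM, next 1.68). Cyclic gilt C128 was apart for CRABP2 in LE (2.11 CPM, 8 counts), cyclic gilt C40 was low for ALDH1A2 in GE (12.2 CPM, next 17.0) and cyclic gilt C42 was low for ALDH1A3 in S (9.00 CPM, next 15.6).

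RDH10 was marked because its pregnancy effect differed between LE and GE by -2.93 on the log2 scale in the joint fit (adjusted p = 0.00387 by edgeR's quasi-likelihood test).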

How the results depend on the processing

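Against 0 calls among the retinoid genes in each compartment, DESeq2 called 1 (LE), 3 (GE), 0 (BV) and 1 (S), and the robust edgeR model 1 (LE), 4 (GE), 1 (BV) and 1 (S). Testing every gene with a count, or a false discovery rate of 5%, called 1 in GE (ALDH1A3) and 1 in BV (RBP4). Leaving out 1 library gave 0 in LE and 0 to 1 in each other compartment: RBP4 in GE without cyclic gilt C128, ALDH1A3 in GE without cyclic gilt C78, RDH10 in GE without pregnant gilt P43, and RBP4 in BV and in S without cyclic gilt C78. RLE factors, the other filter and removal of ribosomal RNA genes gave 0 throughout.

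The count of retinoid genes whose pregnancy effect differed between compartments was 1, 4 at a false discovery rate of 5%, and 0 to 1 with 1 gilt left out. Without the gilt as a block the RDH10 effect in LE minus GE was -2.66 (adjusted p = 0.00992) and still called, and with 1 gilt left out it ranged from -3.44 to -2.42. The count for levels was 8 without the block too, and 7 in pregnant gilts alone. Other pathway genes numbered 2 by DESeq2 against 1 in LE, 4 by DESeq2 and by the robust model against 0 in GE, and 1 by each against 0 in S.

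Of 451 comparisons of a single gene's value with an alternative, 25 changed direction, 22 of them with 1 library left out, in 9 results whose own log2 fold change was at most 0.65 in size. With the robust model these were STRA6 in LE (-0.0396), ALDH1A1 in GE (0.0732) and ALDH1A3 in S (0.00537). With 1 library left out the ranges were -0.23 to 0.21 for STRA6, -0.22 to 1.18 for ALDH1A1 and -0.39 to 0.21 for ALDH1A2 in LE, -0.44 to 0.35 for ALDH1A1 and -0.51 to 0.55 for LRAT in GE, -0.35 to 0.16 for ALDH1A3 in BV, and -0.15 to 0.38 for STRA6, -0.54 to 0.47 for ALDH1A1 and -0.34 to 0.21 for ALDH1A3 in S. The causes were not tested. At these depths, CRABP2 and RLBP1 rest on few reads in most libraries, and a missing call does not show equal levels.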
